A study of Homo sapiens with 6 samples.

Results

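Histone lysine methyltransferases (writers) and demethylases (erasers) add or remove methyl groups on lysines of the histone tails. Each family is known for particular positions, such as lysine 4 of histone H3 (H3K4) at active promoters and enhancers, H3K36 in transcribed gene bodies, and H3K9 and H3K27 in silenced chromatin. They were taken from the deposited expression table by gene symbol, with the KDM, KMT, SETD, SETDB, EZH, EHMT, SUV39H, NSD, WHSC1 and DOT1L names, which gave 46 of its 30960 genes. Of these, 29 are writers and 17 are erasers. The symbols choose by name and not by activity, so they include SETD3, which is known as an actin histidine methyltransferase.

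The RNA came from HEK293, an established line of human embryonic kidney origin, taken 48 h after the cells had received plasmid by lipofection at 158 ng for each square centimetre of culture. In 3 libraries (PKI) the plasmid encoded a fusion of GFP with PKI1-24, and in 3 control libraries (inPKI) a fusion of GFP with inPKI1-24, so both groups carried a plasmid and a GFP fusion. PKI proteins are natural inhibitors of PKA, the kinase that cAMP activates, and act by binding its catalytic subunit. PKA is known to phosphorylate the transcription factor CREB and some chromatin regulators. The libraries of each group are named A, B and C. Nothing says that they came from separate cultures, so each p-value reflects only how far these libraries differ from each other, and that spread may be technical.

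The libraries held 17244715 to 23589438 reads recovered from the deposited CPM values (counts scaled to a common library size), and PKI C was the shallowest. The PKIA level was 9.68 ± 1.46 CPM without PKI1-24 and 43.9 ± 1.96 CPM with it (SD, n = 3 each), which separates the libraries by their labels but cannot tell plasmid from cellular transcript. Of 6 genes known in HEK293 cells, VIM, KRT8, KRT18, NEFL and NEFM were present and PAX2 was near 1 CPM. The 4 leukocyte markers summed to 0.109 to 0.331 CPM in inPKI and 0.233 to 0.569 CPM in PKI, with CD3E at 0. The 3 endothelial markers summed to at most 0.312 CPM, and of the 4 fibroblast markers DCN was at 0 while COL1A1 carried nearly all of a sum of 16.7 to 20.7 CPM. The 3 keratinocyte markers summed to 14.9 to 39.3 CPM in inPKI, highest in library C, and to 14.9 to 17.4 CPM in PKI. The part of these markers in the results was not tested. In bulk RNA, fewer cells with a transcript and less of it per cell cannot be told apart.

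The route from PKA to transcription that is known best runs through CREB, which binds the cAMP response element, TGACGTCA, and its half-site TGACG, both searched on either strand. RefSeq promoters on GRCh38.p14, 250 bases before to 50 bases after each start, were found for 43 of the 46 genes. The full element was in the promoter of 1 of the 43, SUV39H2 (2.33%), against 3.95% of the 9986 tested genes with a promoter. Counted by promoter, it was in 1 of 62 (1.61%), against 2.81% of the 14782 promoters of tested genes and 1.85% of all 35116 promoters. The half-site, which is contained in the full element, was in 13 of the 43 genes (30.2%), against 41.1% of the tested genes. By promoter it was in 14 of the 62 (22.6%), against 31.8% of the promoters of tested genes and 24.6% of all promoters. A match describes letters only and is no evidence of binding. The 250 bases before the start follow for the gene with the smallest p of the group, KMT2C (chr7:152436004-152436253, minus strand, neither motif), for its relative KMT2A (chr11:118436242-118436491, plus strand, half-site on the other strand at position -187 from the start) and for SUV39H2 (chr10:14878616-14878865, plus strand, full element at -116 and a further half-site nearer the start), with the motifs in capitals.
KMT2C: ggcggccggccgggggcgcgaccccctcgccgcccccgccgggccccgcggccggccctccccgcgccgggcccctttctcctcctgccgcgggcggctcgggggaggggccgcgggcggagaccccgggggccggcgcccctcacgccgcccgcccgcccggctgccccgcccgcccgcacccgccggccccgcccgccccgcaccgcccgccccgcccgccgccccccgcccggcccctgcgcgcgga
KMT2A: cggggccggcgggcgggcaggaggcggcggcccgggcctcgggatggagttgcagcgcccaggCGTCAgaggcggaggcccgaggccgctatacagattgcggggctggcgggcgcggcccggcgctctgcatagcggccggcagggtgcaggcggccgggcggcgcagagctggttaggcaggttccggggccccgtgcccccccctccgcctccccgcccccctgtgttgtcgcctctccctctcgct
SUV39H2: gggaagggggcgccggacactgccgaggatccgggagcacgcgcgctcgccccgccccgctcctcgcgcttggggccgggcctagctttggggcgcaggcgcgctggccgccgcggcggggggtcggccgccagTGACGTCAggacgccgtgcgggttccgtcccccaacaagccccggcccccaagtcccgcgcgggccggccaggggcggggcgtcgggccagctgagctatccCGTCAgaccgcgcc
The H3K9 methyltransferase gene SUV39H2 had 36.7, 39.8 and 37.6 CPM in the inPKI libraries A to C, in that order, and 35.7, 38.8 and 34.3 CPM in PKI. The groups overlapped, and the log2 change, always taken as PKI minus inPKI after adding 1 to each CPM, was -0.067 ± 0.063 (SE, limma adjusted p = 0.660).

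Of the 46 genes, 45 passed the filter of at least 1 CPM in at least 3 of the 6 libraries and entered the tests. The exception was KDM5D, a Y-linked H3K4 demethylase, with 0, 1 and 2 reads in inPKI and 0, 0 and 1 read in PKI. Levels were compared between genes as CPM per kb of the longest annotated transcript. KDM1A, the flavin-dependent H3K4 demethylase of the CoREST complex, had the highest level, 64.2 ± 1.81 CPM per kb in inPKI and 62.8 in PKI. KDM5C, an X-linked H3K4 demethylase, followed with 38.5 ± 0.750 CPM per kb in inPKI and 38.5 in PKI. The highest writer was the H4K20 monomethyltransferase KMT5A, with 24.9 ± 1.35 CPM per kb in inPKI (SD, n = 3). SETD1A, SETD5, EHMT2 and NSD2 lay close together at 20.5 to 21.5 CPM per kb in inPKI, with SDs of 0.669 to 0.929, and their order does not exceed that spread. EZH2, the main catalytic subunit of Polycomb repressive complex 2 in dividing cells, had 18.3 ± 0.430 CPM per kb and its paralogue EZH1 5.64 ± 0.0785 CPM per kb. The lowest of the tested genes were SETDB2, KDM4D and SETD9, with means of 1.69 to 2.14 CPM per kb.

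**Figure D1:**
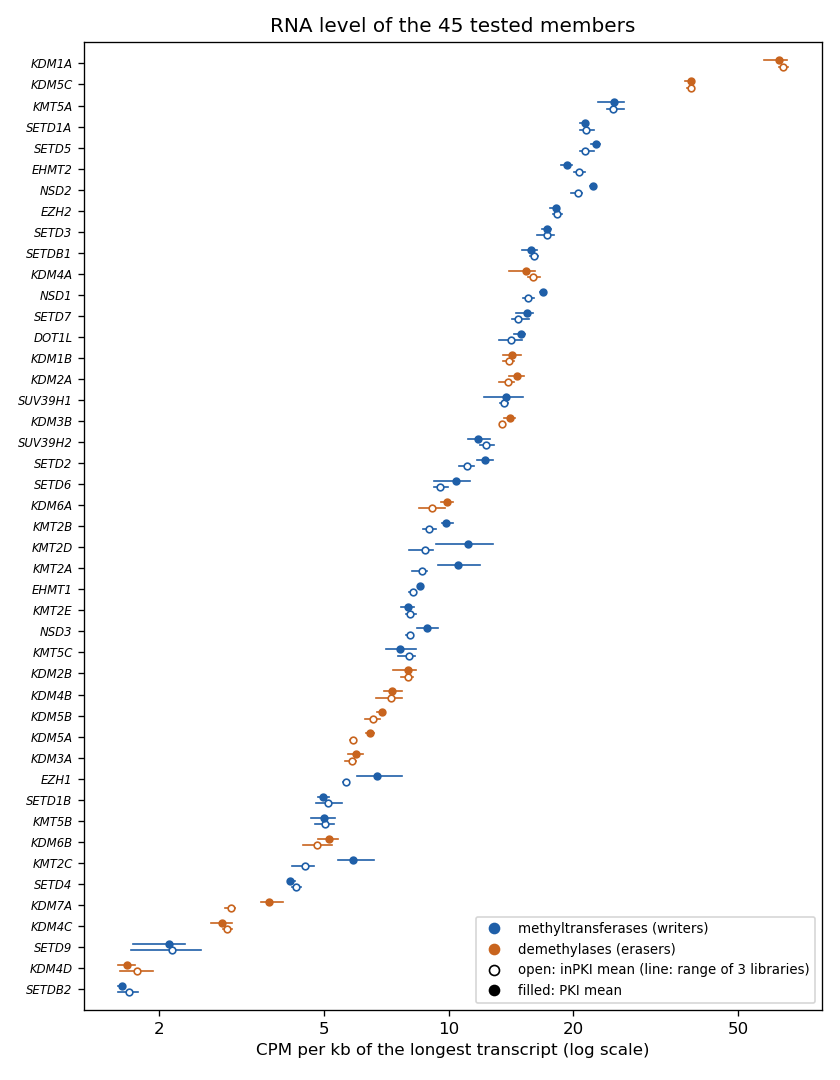
RNA level of the 45 tested genes as CPM per kb of the longest transcript, on a log axis, with the mean (open for inPKI, filled for PKI) and a line for the range of the 3 libraries of each group. KDM1A and KDM5C stand above the writers, and SETDB2, KDM4D and SETD9 lie lowest.

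No gene of the group passed an adjusted p of 0.05 in limma (0 of 45), where 0.126% of the 14275 tested genes did. edgeR on the recovered reads gave 0 of 45 (0.0771% of all genes) and DESeq2 gave 2, KMT2C and KDM7A, both higher in PKI (1.77% of all genes). Limma passed 3 with sample weights, KMT2C, KDM7A and KMT2A (1.01% of all genes), and 3 without PKI B, KMT2C, KMT2A and KMT2D (0.799%). With the library letter as a replicate block, which is not a known pairing, limma passed 4. These were KMT2C, KMT2D, KMT2A and KDM7A, where 124 of all tested genes passed. Without adjustment, 11 of the 45 were higher in PKI at a limma p below 0.05, against 7.53% of all tested genes, and 0 lower, against 6.16%. The lowest PKI library exceeded the highest inPKI library in 12 genes, against 10.9% of all tested genes, and the reverse held in 1, EHMT2, against 8.88%. The 11 genes were the writers KMT2A, KMT2B, KMT2C, KMT2D, EZH1, SETD2, NSD1, NSD2 and NSD3 and the erasers KDM5A and KDM7A, and the twelfth above all controls was EHMT1. The count at an unadjusted p below 0.05 was 5 without inPKI B and 6 without inPKI C, where the share over all genes was not counted. It was 3 once a trend with transcript length was removed, all higher in PKI, against 4.83% of all tested genes. The other 34 tested genes had log2 changes between -0.089 and 0.12.

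**Figure D2:**
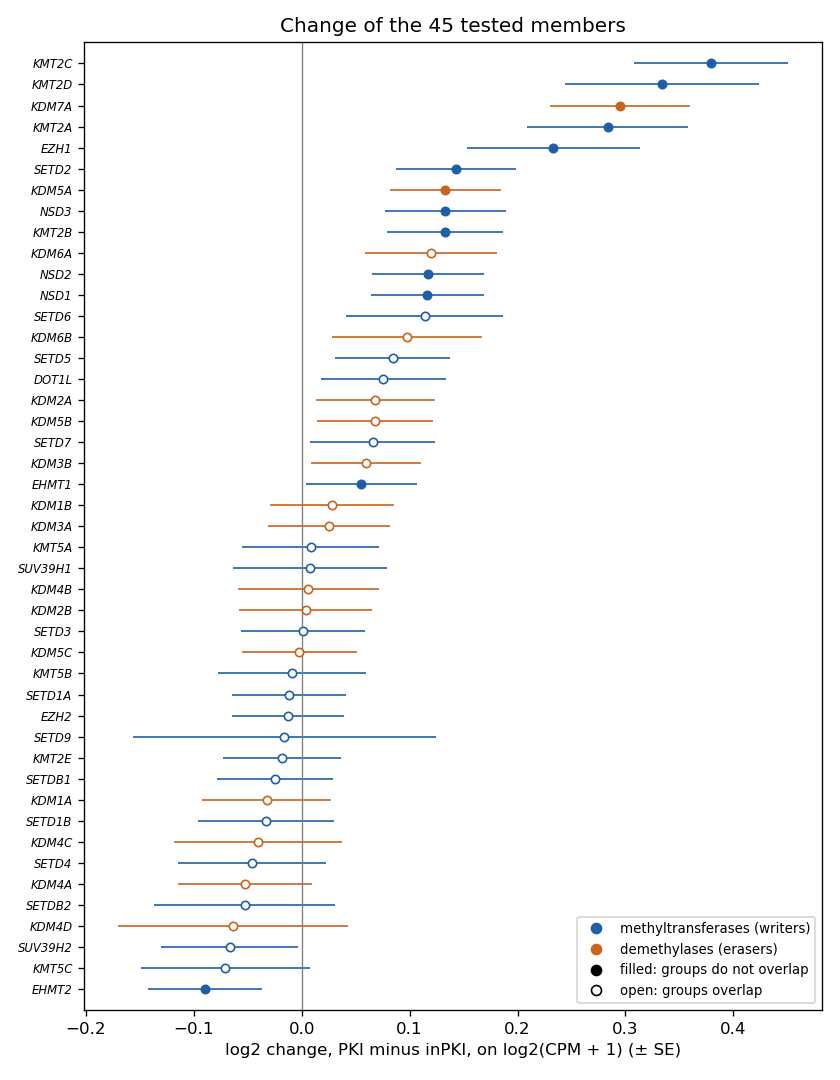
Log2 change (PKI minus inPKI, CPM + 1) with its SE from limma, for the 45 tested genes in order of size, coloured by writer or eraser and filled where the 2 groups of 3 libraries do not overlap. KMT2C, KMT2D, KDM7A, KMT2A and EZH1 have the 5 highest values, 0.23 to 0.38.

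The 5 highest changes included 3 of the H3K4 methyltransferases of the KMT2 (MLL) family. KMT2C, a very large enzyme that methylates H3K4 at enhancers, measured 77.7, 70.4 and 79.5 CPM in inPKI A, B and C and 95.2, 91.2 and 111 CPM in PKI A, B and C. All PKI libraries were above all controls, and PKI C was the highest. Its log2 change was 0.38 ± 0.072 (SE), a mean 30.8% above that of inPKI, and it missed the threshold with an adjusted p of 0.0568 in limma. It passed in limma without PKI A (0.0475), PKI B (0.0110) or PKI C (0.0293), with sample weights (0.00755), with the stricter filter of 5 CPM (0.0308), which tests fewer genes, and in DESeq2 (0.000312), and did not pass in edgeR (0.0946) or without inPKI A, B or C (0.209, 0.381 and 0.111). With the library letter as a replicate block KMT2C passed in limma as well (0.00652). Over all alternatives its adjusted p ranged from 0.000312 to 0.381. Duplicated pieces of KMT2C are known elsewhere in the genome, so its reads are uncertain where the counting split them.

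KMT2D, the other enhancer H3K4 methyltransferase of the family, measured 178, 156 and 175 CPM in inPKI A, B and C and 218, 181 and 248 CPM in PKI A, B and C. The groups did not overlap, but PKI B lay only just above inPKI A. The log2 change was 0.33 ± 0.090 (SE, limma adjusted p = 0.158). Without PKI B it was 0.45 with an adjusted p of 0.00848, the lowest of the alternatives. With the library letter as a replicate block KMT2D passed as well (limma adjusted p = 0.0189). It did not pass, among others, without inPKI B (0.27, limma adjusted p = 0.545) or with the length trend removed (0.13, limma adjusted p = 0.613). With PKI B as the lone PKI library, which limma takes to vary like the controls, its log2 change was 0.094. KMT2A, the founding member of the family and known as the MLL gene of leukaemia translocations, measured 146, 135 and 148 CPM in inPKI and 170, 156 and 198 CPM in PKI. PKI C was again highest and PKI B lowest of the PKI libraries. Its log2 change was 0.28 ± 0.074 (adjusted p = 0.146). It passed without PKI B (0.36, adjusted p = 0.0332), with sample weights (0.0499) and with the replicate block (0.0285), in a range of 0.0285 to 0.649. Of the exon bases of KMT2A 17.9% are shared with an overlapping gene model on the same strand, AP001267.5, so some of its reads could be assigned elsewhere.

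The promoter H3K4 methyltransferase KMT2B measured 78.9, 73.2 and 75.3 CPM in inPKI and 86.5, 81.7 and 81.4 CPM in PKI, with a log2 change of 0.13 ± 0.054 (limma adjusted p = 0.306). The groups did not overlap and PKI A was highest. The other 4 H3K4 writers, KMT2E, SETD1A, SETD1B and SETD7, overlapped between the groups, with log2 changes of -0.033 to 0.066. KMT2E has no established methyltransferase activity of its own.

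All 4 H3K36 methyltransferases that the symbols cover had PKI libraries above every control, with log2 changes of 0.12 to 0.14 and a median of 0.12. All 4 have transcripts of 8 kb or more, a length at which the same separation held in 42.2% of all tested genes and the median change was 0.12. SETD2, the enzyme that trimethylates H3K36 behind RNA polymerase II, measured 90.4, 86.6 and 93.8 CPM in inPKI and 99.4, 95.5 and 105 CPM in PKI. Its log2 change was 0.14 ± 0.055 (SE, limma adjusted p = 0.286), the largest of the 4. NSD1, which dimethylates H3K36, measured 207, 194 and 199 CPM in inPKI and 221, 216 and 214 CPM in PKI, and its log2 change was 0.12 ± 0.053 (adjusted p = 0.349). NSD2, its relative altered in multiple myeloma, measured 180, 169 and 178 CPM in inPKI and 188, 190 and 194 CPM in PKI, and its log2 change was 0.12 ± 0.052 (adjusted p = 0.343). NSD3, the third member of the family, measured 88.4, 84.8 and 87.2 CPM in inPKI and 90.1, 94.3 and 102 CPM in PKI, and its log2 change was 0.13 ± 0.056 (adjusted p = 0.320), or 0.086 without PKI C. In each of the 4 the distance between the groups was small, and none passed. The 2 H3K36 demethylases, KDM2A and KDM2B, overlapped between the groups and had log2 changes of 0.068 and 0.0036.

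For H3K27, the 2 writers are the alternative catalytic subunits of Polycomb repressive complex 2. EZH1, the subunit known from non-dividing cells, measured 26.3, 25.7 and 26.3 CPM in inPKI A, B and C and 27.8, 29.7 and 35.6 CPM in PKI A, B and C. The groups did not overlap, and PKI C lay well above the rest. The log2 change was 0.23 ± 0.080 (limma adjusted p = 0.233), and without PKI C it was 0.13. EZH2 measured 66.5, 65.0 and 68.1 CPM in inPKI and 66.7, 64.0 and 67.1 CPM in PKI, with a log2 change of -0.013 ± 0.052 (adjusted p = 0.938), so the libraries of the 2 groups were interleaved. The difference between the 2 paralogues in their change was not tested. The H3K27 demethylases KDM6A (X-linked, also called UTX) and KDM6B (inducible, also called JMJD3) overlapped between the groups. KDM6A measured 58.1, 50.2 and 53.9 CPM in inPKI and 58.9, 56.6 and 60.8 CPM in PKI, and KDM6B 35.0, 29.9 and 31.9 CPM against 36.3, 32.5 and 34.9 CPM. Their log2 changes were 0.12 ± 0.062 and 0.097 ± 0.069, with limma adjusted p of 0.408 and 0.552. Without inPKI B they were 0.069 and 0.045, and that of KDM6B was 0.16 without inPKI A and 0.062 without PKI A.

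KDM7A, a jumonji demethylase of H3K9 and H3K27, had the largest change of the erasers. It measured 26.7, 27.9 and 28.3 CPM in inPKI and 32.6, 33.0 and 36.8 CPM in PKI, and every PKI library was above every control. Its log2 change was 0.30 ± 0.065 (SE, limma adjusted p = 0.109). It passed in DESeq2 (0.0160) and, in limma, with sample weights (0.0299) and with the replicate block (0.0369). The span of the alternatives was 0.0160 to 0.442. KDM5A, an H3K4 demethylase first known as a partner of the retinoblastoma protein, measured 64.3, 63.3 and 62.0 CPM in inPKI and 69.1, 68.1 and 71.2 CPM in PKI, with no overlap, a log2 change of 0.13 ± 0.051 and a limma adjusted p of 0.286. KDM1A measured 195, 202 and 191 CPM in inPKI and 200, 200 and 177 CPM in PKI. Only PKI C lay outside the control range, and the log2 change was -0.032 ± 0.060 (adjusted p = 0.844). The KDM4 enzymes, jumonji demethylases of H3K9, had overlapping groups. KDM4A measured 69.5, 74.4 and 69.9 CPM in inPKI and 71.3, 72.3 and 62.7 CPM in PKI, with a log2 change of -0.053 ± 0.062 (limma adjusted p = 0.731). KDM4C measured 13.6, 13.2 and 13.9 CPM in inPKI and 12.4, 13.9 and 13.3 CPM in PKI, with a log2 change of -0.041 ± 0.078 (adjusted p = 0.849). KDM4D, the lowest of the tested erasers, measured 5.27, 4.78 and 5.75 CPM in inPKI and 5.21, 5.03 and 4.72 CPM in PKI, with a log2 change of -0.064 ± 0.11 (adjusted p = 0.822). The remaining H3K9 demethylases, KDM3A, KDM3B and KDM4B, had log2 changes of 0.0060 to 0.060, and the H3K4 demethylases KDM1B, KDM5B and KDM5C of -0.0023 to 0.068, all with overlapping groups. A second gene model on the same strand, AL451062.3, covers 40.2% of the exon bases of KDM4A.

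The H3K9 writers included the only gene of the group with every PKI library below every control. EHMT2 (G9a), an H3K9 mono- and dimethyltransferase, measured 88.1, 82.7 and 84.2 CPM in inPKI and 82.1, 80.2 and 77.2 CPM in PKI. The gap between the groups was small, and the log2 change of -0.089 ± 0.053 did not pass (limma adjusted p = 0.466). Its heterodimer partner EHMT1 (GLP) measured 64.2, 65.2 and 63.0 CPM in inPKI and 66.1, 68.0 and 65.9 CPM in PKI, and its log2 change was 0.055 ± 0.051 (adjusted p = 0.652), with the PKI libraries just above the controls. An antisense gene, EHMT2-AS1, covers 8.12% of the exon bases of EHMT2. SETDB1, the H3K9 trimethylating enzyme recruited by TRIM28, measured 72.7, 71.5 and 69.9 CPM in inPKI and 71.0, 72.6 and 66.8 CPM in PKI, with a log2 change of -0.025 ± 0.054 (adjusted p = 0.867) and overlapping groups. Its 3' neighbour on the other strand, CERS2, shares 13.4% of its exon bases.

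DOT1L, the H3K79 methyltransferase, measured 106, 98.3 and 112 CPM in inPKI and 112, 107 and 114 CPM in PKI, so the groups overlapped, with a log2 change of 0.076 ± 0.058 (limma adjusted p = 0.580), which was 0.028 without inPKI B and 0.12 without inPKI C. Of the 3 H4K20 methyltransferases, KMT5C, which makes the trimethyl mark, measured 19.0, 17.4 and 19.1 CPM in inPKI and 19.3, 17.2 and 16.3 CPM in PKI. PKI A was the highest of its 6 libraries and PKI C the lowest, with a log2 change of -0.071 ± 0.079 (adjusted p = 0.717), or -0.019 without PKI C and -0.13 without PKI A. KMT5A and KMT5B had log2 changes within 0.01 of 0. The 5 remaining SET domain genes, SETD3, SETD4, SETD5, SETD6 and SETD9, all overlapped between the groups, with log2 changes of -0.046 to 0.11. The last 2 H3K9 writers, SUV39H1 and SETDB2, overlapped as well, with 0.0080 and -0.053. An antisense gene covers 20.3% of the exon bases of SUV39H1, and CNOT1, on the other strand, 21.4% of those of SETD6.

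**Figure D3:**
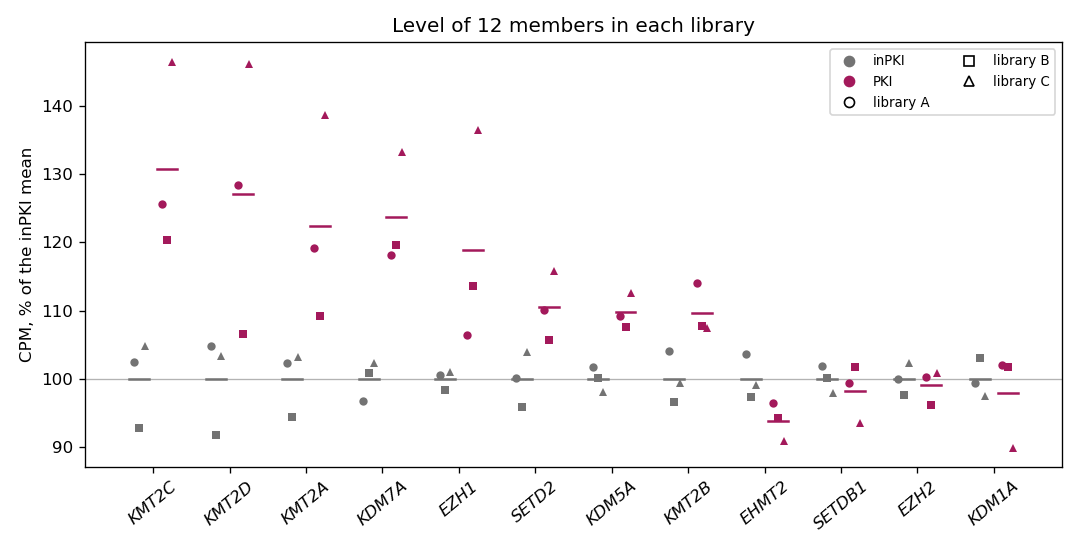
CPM of 12 genes in each of the 6 libraries as a percent of the gene's inPKI mean (grey for inPKI, red for PKI, symbols for libraries A, B and C, bars for group means). In KMT2C, KMT2D, KMT2A, KDM7A and EZH1 PKI C is the highest library, while EZH2 and SETDB1 stay within 10% of the control mean.

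Writers and erasers were then set side by side. The median log2 change was 0.0082 over the 29 tested writers and 0.027 over the 16 tested erasers, where it was -0.0074 over all 14275 genes, and the difference, writers minus erasers, was -0.019. Of the writers 17 had a log2 change above 0 and of the erasers 11, where 47.4% of all tested genes did. At an unadjusted p below 0.05 there were 9 writers and 2 erasers, all higher in PKI, where 7.53% of all tested genes were. Of these, 8 of the writers and both erasers have transcripts of 8 kb or more, a length at which 35.2% of all tested genes were. The mean log2 level of the writers minus that of the erasers was 0.16, 0.15 and 0.13 in the inPKI libraries A to C and 0.15, 0.14 and 0.21 in PKI. PKI A and PKI B thus lay within the range of the controls and PKI C above it. The sign of the difference of the medians was not stable. It was 0.016 without inPKI A, 0.0017 without PKI C, 0.0050 with a filter of 5 CPM, 0.0066 with sample weights, 0.0024, 0.028 and 0.027 with the GC trend, the length trend or both removed, 0.012 with the median length in its place and 0.0049 with PKI B alone, and 0.032 among genes of 8 kb or more.

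Apart from EZH1, the 5 genes with the highest changes have long transcripts. The median length of the longest annotated transcript was 6.45 kb for the 45 tested genes and 3.54 kb for all tested genes. Among the 13 of 8 kb or more, 12 had a log2 change above 0, with a median of 0.13, and the exception was SETD1B at -0.033. The 1218 tested genes of that length had a median of 0.12, and 35.2% of them had an unadjusted p below 0.05 and were higher in PKI, against 10 of the 13. In 42.2% of them all PKI libraries exceeded all controls, against 10 of the 13 as well. Among the 32 shorter genes of the group 16 lay above 0 and 16 below, with a median of -0.00058 and 1 gene at an unadjusted p below 0.05, EZH1. The 4 genes of 12 kb or more, KMT2A, KMT2C, KMT2D and NSD1, had a median of 0.31, where the 291 tested genes of that length had 0.18.

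Across the 45 genes the log2 change and the log2 of transcript length had a Pearson correlation of 0.70 and a Spearman correlation of 0.69, against 0.32 and 0.45 over the 14242 tested genes with a length. With GC content of the transcript the Pearson correlation over the 45 genes was -0.15. These describe genes that share the same 6 libraries and are not independent. The trend was present in each PKI library and largest in PKI C. Relative to the inPKI mean, all tested genes of 12 kb or more had a median log2 difference of 0.13 in PKI A, 0.11 in PKI B and 0.28 in PKI C, and those under 2 kb had -0.062, -0.045 and -0.18. The 3 inPKI libraries lay between -0.022 and 0.015 in both classes. The trend runs with the groups, so transcript length and group cannot be told apart in these libraries.

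**Figure D4:**
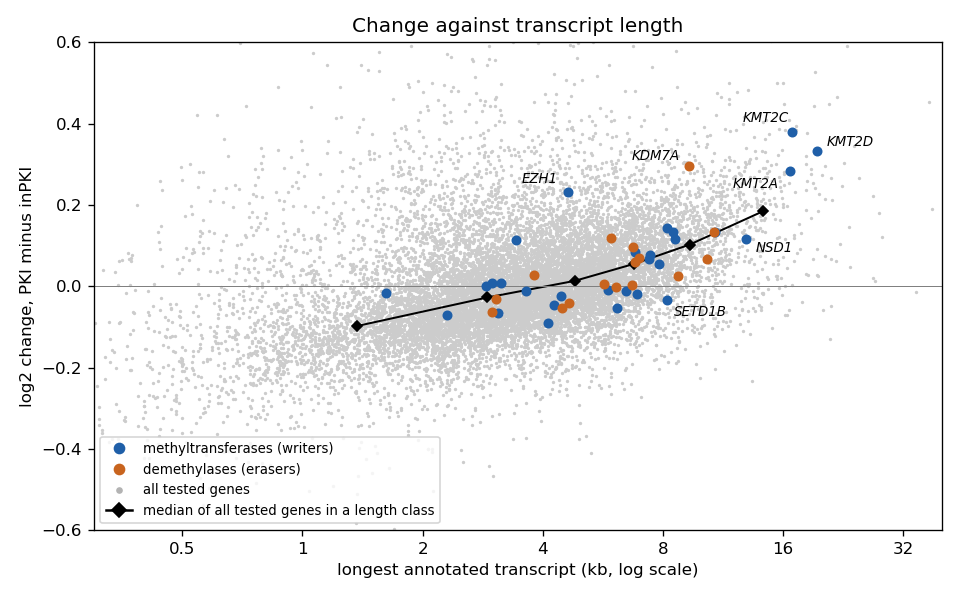
Log2 change, PKI minus inPKI, against the length of the longest annotated transcript on a log axis, for all tested genes (grey), the median of all tested genes in 6 length classes (diamonds) and the writers and erasers. The class medians climb from -0.098 under 2 kb to 0.18 at 12 kb or more. EZH1, KDM7A, KMT2C, KMT2D and KMT2A lie above the medians of their classes and NSD1 below its own. In all, 60 genes fall outside the plotted range.

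When a trend on transcript length was removed from each library, 0 of the 45 genes passed the threshold in limma (0.112% of all genes) and 3 had an unadjusted p below 0.05 (8.6% of all genes), all higher in PKI. They were KMT2C, KDM7A and EZH1. KMT2C then had a log2 change of 0.19 ± 0.054 (unadjusted p = 0.00261, limma adjusted p = 0.304), KDM7A 0.19 ± 0.061 (unadjusted p = 0.00609, adjusted p = 0.360) and EZH1 0.21 ± 0.077 (unadjusted p = 0.0121, adjusted p = 0.447). EZH1, with a transcript of 4.62 kb, thus moved little from its value of 0.23. KMT2A went to 0.096 and KMT2D to 0.13. The H3K36 writers went to a median of 0.014, with NSD1 at -0.037, and KDM5A to 0.0054. The median of the writers was then 0.0022 and that of the erasers -0.026. The result depended on which length was used. With the median length over a gene's annotated transcripts in place of the longest, an alternative chosen after seeing the data, KMT2C had 0.40, KMT2A 0.28 and KMT2D 0.34, while KDM7A went to 0.18. In that fit 10 genes higher and 1 lower had an unadjusted limma p below 0.05, and the share over all genes was not counted. Which transcripts of these genes the cells made was not measured.

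**Figure D5:**
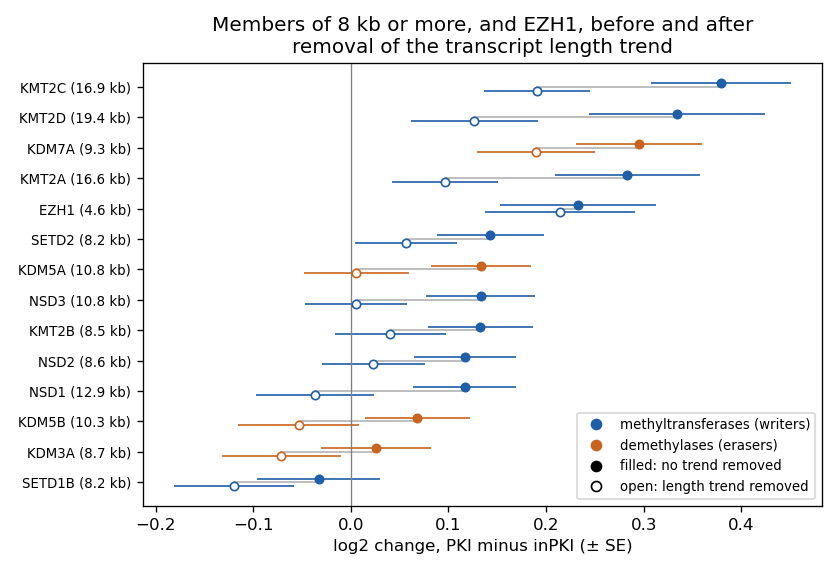
Log2 change with its SE for the 13 genes with a transcript of 8 kb or more and for EZH1, from limma on the CPM values without (filled) and with (open) removal of the transcript length trend. KMT2C goes from 0.38 to 0.19, KDM7A from 0.30 to 0.19 and EZH1 from 0.23 to 0.21, while NSD1, KDM5A and NSD3 move to between -0.037 and 0.0054.

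The partners and relatives of these enzymes were read from 8 lists. In limma and in edgeR none of their tested genes reached an adjusted p below 0.05, and DESeq2 passed 2, AFF4 and ASH1L. The counts at an unadjusted p below 0.05 are to be read against 7.53% of all tested genes higher and 6.16% lower, and 35.2% higher among those of 8 kb or more. Of the 13 subunits of the COMPASS complexes in which KMT2 and SETD1 enzymes work, 5 had a log2 change above 0, the median was -0.053, and at an unadjusted p below 0.05 there were 0 higher and 1 lower. The smallest p was that of DPY30, a shared core subunit with a short transcript (1.52 kb). It had 33.2, 33.8 and 29.08 CPM in inPKI and 29.03, 28.2 and 25.0 CPM in PKI (27.4 ± 2.11 CPM, SD, n = 3). Every PKI library lay below every control, but PKI A and inPKI C were nearly equal. The log2 change of DPY30 was -0.22 ± 0.075 (limma adjusted p = 0.235). The core subunits ASH2L and WDR5 had -0.10 and -0.087, with overlapping groups. Among 9 Polycomb repressive complex 2 genes the median was 0.024, and the accessory subunit gene AEBP2, the 1 gene below an unadjusted p of 0.05, had a log2 change of 0.16 ± 0.059 (limma adjusted p = 0.259).

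Of the 6 DOT1L partners 2 had an unadjusted p below 0.05, both higher in PKI, AFF4 and AFF1, with transcripts of 9.55 and 9.39 kb. AFF4, a scaffold of the super elongation complex, measured 95.7, 89.8 and 95.6 CPM in inPKI and 111, 109 and 122 CPM in PKI. The groups did not overlap, and the log2 change was 0.28 ± 0.058 (limma adjusted p = 0.0878). It passed in DESeq2 (0.00191), and with the length trend removed it was 0.17 (adjusted p = 0.335). AFF1, whose groups overlapped, had a log2 change of 0.20 ± 0.075 and MLLT3 of -0.14 ± 0.080. Among 9 tested lysine methyltransferases that the symbols do not cover, 1 had an unadjusted p below 0.05. This was ASH1L, an H3K36 methyltransferase, which measured 72.7, 64.9 and 73.3 CPM in inPKI and 82.8, 80.5 and 85.9 CPM in PKI, with a log2 change of 0.24 ± 0.059 (adjusted p = 0.127, and 0.0123 in DESeq2) that went to 0.096 with the length trend removed. Among 8 tested jumonji proteins outside the symbols, 1 had an unadjusted p below 0.05, JMJD1C, a relative of the KDM3 demethylases. Its log2 change was 0.17 ± 0.058 (limma adjusted p = 0.231), with no overlap between groups. JMJD1C has a transcript of 8.67 kb, and the same separation held in 42.2% of all tested genes of 8 kb or more. With the length trend removed its log2 change was 0.074. In the other lists the smallest p belonged to ZMYM2 and GSE1 among the 11 CoREST partners of KDM1A (0.14 ± 0.052 and 0.15 ± 0.057). Among 11 H3K9 readers and partners it belonged to the SETDB1 partner ATF7IP (0.13 ± 0.052). Among 6 genes of methyl donor supply it belonged to the methionine synthase MTR (0.082 ± 0.053). ZMYM2, GSE1, ATF7IP and MTR have transcripts of 10.2, 7.5, 8.88 and 10.5 kb. With the length trend removed their log2 changes were 0.016, 0.073, 0.030 and -0.043, in that order.

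In the authors' deposited table of PKI against inPKI, 0 of the 46 genes passed an adjusted p of 0.05. Each of the 46 had a DESeq2 adjusted p of 0.9999 there. The share of all genes that passed in that table was not counted, so the 0 cannot be set against the other genes. Turned to PKI over inPKI, its log2 fold change was 0.40 ± 0.21 (standard error) for KMT2C in the authors' deposited table, with a p of 0.0580 and an adjusted p close to 1. That table assigns a mean above 0 to 2069 genes that are 0 in all 6 libraries. The libraries and the quantification behind it are not given in the sources used here.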

How the data were processed

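RNA-seq of 6 HEK293 libraries was analysed, 3 PKI and 3 inPKI, grouped by their titles. The authors deposited expression as CPM (read counts relative to library size, with TMM factors, per the file headers), so the main test was on a log scale. Per the submitters' processing notes, which give no role or setting, the tools were RSEM 1.3.0, STAR 2.5.2b, DESeq2 1.20.0 and cutadapt 1.14 and the build hg19. The authors also deposited a DESeq2 comparison with a mean normalized signal, a log2 fold change, its standard error, a test score (the Wald statistic), p-values and a signed fold change, per the file headers. There the signs of the 2 fold changes disagree in all 30960 rows, so the log2 value was turned to PKI over inPKI.

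Each CPM value was a whole multiple of the value of 1 read (0.0333 to 0.0437 CPM) for 100% of values, within 0.01 reads, and the reads so recovered were used for edgeR 4.0.16 and DESeq2 1.42.0. RSEM estimates that were rounded before scaling would look the same. Limma 3.58.1 in R 4.3.3 (mean-variance trend, 2-sided, Benjamini-Hochberg over 14275 genes, threshold 0.05) was run on log2(CPM + 1) for genes of at least 1 CPM in at least 3 libraries, which understates changes of low genes. The smallest exact permutation p for a single gene, 3 against 3, is 0.1. The fit was tested on simulated data. Lengths, GC content and overlaps came from GENCODE 29 on GRCh38, matched by gene identifier for 30795 rows, and positions are that annotation's, not the alignment's. Length and GC trends were removed per library by lowess (span 0.3).

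The genes and lists were chosen with earlier results of these data known. Values in every library were given for the genes at an unadjusted p below 0.05, the 3 largest increases and decreases of writers and of erasers that averaged at least 5 CPM, and 10 enzymes named by choice, such as EZH2 and KDM1A. The letters are not stated to pair samples, so they were not used as pairs in the main fit. Same-letter libraries had correlations of deviations of 0.017, 0.014 and 0.028, against -0.022 to 0.010 between different letters. In all 22 alternatives were tried: other pseudocounts (0.25 and 5), filters, scalings and limma settings, edgeR and DESeq2, a replicate block, length and GC trends removed, and libraries left out.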

Additional observations from a re-analysis of the deposited data

How the results depend on the processing

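Of the 5 summary values, 84 of the values recomputed under the alternatives stayed close to the first and 26 moved. Of the named genes' values, 474 kept direction and side of the threshold, 15 newly passed it and 14 changed sign. The 0 calls became 1 with a filter of 5 CPM, 3 with sample weights and 2 in DESeq2, and were 0 to 3 with 1 library left out. The count of 11 genes at an unadjusted p below 0.05, all higher in PKI, became 6 without a variance trend and 3 with the length trend removed. It was 4 with length and GC removed, 3 higher and 1 lower, and 5 to 12 with 1 library left out. Of these alternatives the share over all genes was counted only with the length trend removed (8.6%, either direction). The other counts thus cannot show whether the group moved apart from the rest. The same holds for the calls with the 5 CPM filter or with a library other than PKI B left out. The writers' median was 0.032 with a filter of 5 CPM, 0.056 with sample weights, 0.028 with the median transcript length trend removed, 0.050 without PKI A and PKI C, and -0.011 to 0.064 with 1 library left out. The erasers' median was -0.026 with the length trend removed and -0.030 with length and GC removed. Their difference was 0.028 and 0.027 in those fits, and -0.032 to 0.016 with 1 library left out. The cause was not tested. With 1 library left out, log2 changes were -0.090 to 0.012 for KDM4A, -0.029 to 0.0083 for EZH2, -0.063 to 0.027 for KDM1A and -0.051 to 0.0092 for SETDB1. NSD1, at 0.12 with an unadjusted p below 0.05, turned sign with length removed (-0.037) and with length and GC removed (-0.031), where DOT1L, at 0.076, also turned (-0.011). KDM1A turned with sample weights (0.0073) and EZH2 without inPKI C (0.0040) or PKI B. Those of KDM4A, KDM1A and SETDB1 turned without PKI C. With PKI B as the only PKI library they turned in SUV39H2 (0.030), KDM4A (0.022), KDM4C (0.032), KDM1A (0.024) and SETDB1 (0.026). With the library letter as a replicate block, a shared letter and not a known pairing, 4 genes passed, KMT2C, KMT2D, KMT2A and KDM7A, and over all genes 124 instead of 18. Every library correlated best with its own letter, a hint from the data and not from the design. In the fit with PKI B as the lone PKI library, inPKI alone gives the spread. Removing PKI A and PKI C together and the median length were chosen after seeing the data. At a depth of 17244715 to 23589438 reads, KDM5D had at most 2 reads in a library. The reason for its low count was not tested.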
